A study of Mus musculus with 6 samples.

Results

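The TWEAK receptor gene Tnfrsf12a and a set of NF-kB pathway genes were followed in C2C12 cells, a mouse skeletal myoblast line. The rule named 10 genes and took every probe set of the array that the platform annotation pairs with exactly 1 of them. It found 19 probe sets for 9 of the genes, of 45037 probe sets and 18193 genes in all. These were 2 for Tnfrsf12a, 5 for Nfkbia, 2 for Nfkb2, 1 for Relb, 2 for Tnfaip3, 1 for Ccl2, 1 for Ccl7, 3 for Cxcl12 and 2 for Ptgs2, and Nfkb1 is not analysed here. The genes were chosen partly on the measured signal difference between induced and noninduced cells, that of Tnfrsf12a first among them. Their differences between these groups are therefore given as a description, without a test.

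The cells carried a tetracycline-inducible integrin alpha7 construct, and the study asked how raising this laminin receptor subunit affects transcription in myoblasts. Undifferentiated cells of both groups were cultured for 36 h in DMEM with 20% fetal bovine serum, chick embryo extract, glutamine and antibiotics. The noninduced group received no tetracycline and the induced group 1 µg/ml, with 3 biological samples and 3 arrays each. The labels do not say whether the line was a single clone, nor from which species the construct came. Since tetracycline was given to the induced group alone, an effect of the drug and one of the integrin cannot be told apart.

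TWEAK is a ligand of the tumour necrosis factor family, and Tnfrsf12a (also called Fn14) is its small receptor, known in skeletal muscle for its induction by injury, denervation and growth factors. The receptor recruits TRAF adaptors, which can activate the canonical NF-kB pathway through degradation of the inhibitor encoded by Nfkbia, and the non-canonical pathway through processing of the Nfkb2 precursor and its partner Relb. Nfkbia and Tnfaip3 are themselves transcribed in response to NF-kB and restrain it. Ccl2, Ccl7 and Ptgs2 are inflammatory genes with NF-kB among their regulators, and Cxcl12 is a chemokine that guides cells bearing the receptor CXCR4.

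Promoter sequence is shown first for the receptor and for the feedback genes, because the NF-kB binding motif is what the targets are known to share. Windows of 250 bases before to 50 after annotated transcription starts came from RefSeq (assembly GRCm38.p6) and were held for 6 of the genes, 9 windows in all. They were searched on both strands for the kB consensus motif, 10 bases long, and 8.46% of 32851 windows of the same length over all genes hold a match. Of the 6 genes, 3 had a match: Nfkbia, Nfkb2 and Tnfaip3. Over all genes with a window, 9.55% did. In the Tnfrsf12a, Cxcl12 and Ptgs2 windows these letters were not found. A match is a description of the sequence and not a measured binding site. The 250 bases before the start follow for Tnfrsf12a (chr17:23677450-23677699, minus strand), Nfkbia (chr12:55492648-55492897, minus strand) and the upstream start of Tnfaip3 (chr10:19015411-19015660, minus strand), with 30 bases of the first Nfkb2 window (chr19:46304692-46304721, plus strand). Each is written 5′ to 3′ along the gene, and capitals mark kB matches.
Tnfrsf12a: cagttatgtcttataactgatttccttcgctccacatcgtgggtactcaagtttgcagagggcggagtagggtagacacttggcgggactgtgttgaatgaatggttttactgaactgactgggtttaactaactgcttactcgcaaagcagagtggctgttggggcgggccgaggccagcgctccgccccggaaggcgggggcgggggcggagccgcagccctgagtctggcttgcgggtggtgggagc
Nfkbia: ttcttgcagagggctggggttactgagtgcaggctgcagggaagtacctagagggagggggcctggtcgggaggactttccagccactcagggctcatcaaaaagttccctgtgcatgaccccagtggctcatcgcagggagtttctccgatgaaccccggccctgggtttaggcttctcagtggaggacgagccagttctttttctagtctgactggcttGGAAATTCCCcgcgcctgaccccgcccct
Tnfaip3: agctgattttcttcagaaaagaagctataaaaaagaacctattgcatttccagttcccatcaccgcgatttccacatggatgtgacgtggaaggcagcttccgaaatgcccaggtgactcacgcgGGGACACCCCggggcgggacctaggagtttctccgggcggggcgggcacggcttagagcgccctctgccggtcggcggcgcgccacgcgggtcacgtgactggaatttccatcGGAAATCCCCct
Nfkb2: cgtcacGGGAATTCCCCccctcggggggcc
The Nfkbia match covers bases -29 to -20 from the start. The first Tnfaip3 window has matches at -125 to -116 and at -12 to -3, and the window of its second start has none. In the first Nfkb2 window 2 matches on opposite strands overlap almost entirely, at -39 to -30 and -38 to -29, and another lies at -11 to -2; the windows of the other Nfkb2 starts hold further matches.

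Each array gave a linear signal per probe set, and precision is limited by how many arrays there were. Differences below are on the log2(signal + 16) scale, arrays labelled induced minus noninduced, with the standard error of a limma fit over the 22518 probe sets whose mean signal was above the median of 23.4. The 1 probe set of Itga7 measured 792 ± 17.2 without tetracycline and 693 ± 29.9 with it (SD, n = 3 each). It was thus lower, not higher, on arrays labelled induced, without overlap, at -0.19 (SE 0.058). Whether this probe set detects the transcript of the construct is not known, so induction could not be checked here. Every direction thus rests on the labels and on the instrument records, which name the same groups of arrays Control and Tetplus. The median array signal ranged from 24.99 to 27.7 in the noninduced group and from 22.9 to 24.9 in the group labelled induced. The Gapdh 3′ to 5′ ratio, a sign of RNA quality, was 0.788 to 0.802 and 0.761 to 0.782, and that of Actb 1.0999 to 1.108 and 1.117 to 1.143 (exact permutation p = 0.1 for each of the 3 measures, the smallest that 3 against 3 arrays allow). Their part in the differences below was not tested. By the times in the instrument records, induced replicates 2 and 3 were washed in a second fluidics run, apart from the other 4 arrays. All noninduced arrays were scanned before all induced ones, so the order of scanning cannot be told apart from the group. Of 7 myoblast markers 6 were above the signal filter, among them Myod1 at 805 and 712 and Des at 1306 and 1369 (noninduced and induced means), while Cav3 was below it. Differences of these 6 were positive for 3 and negative for 3, with a median of -0.03, and 0 passed an adjusted p of 0.05 in limma. The groups did not overlap for 2 of them as lower and for 1 as higher. Over all probe sets tested these shares were 10.6% and 9.65%. Of the markers of other cell types with a probe set, 4 of 7 for macrophages were above the filter, 1 of 4 for T cells (Cd8a, -0.19), 1 of 5 for endothelium (Kdr, 0.13), 1 of 4 for fibroblasts and fibro-adipogenic cells, and 0 of 5 for neutrophils and 0 of 3 for adipocytes. The fibroblast marker above it was Pdgfra, a receptor for platelet-derived growth factor: 1421917_at gave 60.6, 37.3 and 50.1 on noninduced arrays and 101.4, 75.05 and 65.4 on those labelled induced, without overlap. Its difference was 0.56 (SE 0.180, limma adjusted p = 0.195), and that of its other probe set above the filter -0.15, while Dcn, Lum and Thy1 lay below the filter. The summed signal of these 4 markers was 86.4 to 94.9 on noninduced arrays and 86.8 to 124.8 on those labelled induced. The part of such cells in the results was not tested.

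Tnfrsf12a was lower on every array labelled induced than on any noninduced array. Probe set 1418571_at gave 2759.6, 3012 and 3071 on noninduced replicates 1, 2 and 3. On induced replicates 1, 2 and 3 it gave 2218.5, 2278 and 2409. The groups did not overlap, and the gap between them was wider than the range within either. The means were 2948 ± 165 and 2302 ± 97.6 (SD, n = 3 each), and the log2 difference was -0.35 (SE 0.053), a level 21.8% lower. The second probe set, 1418572_x_at, is annotated to the same transcript and is no independent sample: it gave 2633, 2724 and 2789 on noninduced arrays and 2131, 2140.5 and 2275 on those labelled induced. Its difference was -0.31 (SE 0.047), or 19.5% lower.

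The Tnfrsf12a difference was negative for both probe sets under the 16 alternatives that were run, while its size moved. Other filters and the replicate block leave the difference unchanged by design, so they do not test its sign. For 1418571_at it ranged from -0.40 to -0.32 when arrays were left out in turn, and with arrays centred on their medians it was -0.26. Within the first fluidics run, which holds a single induced array (replicate 1), it was -0.41. For 1418572_x_at the same values were -0.34 to -0.29, -0.22 and -0.35.

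**Figure D1:**
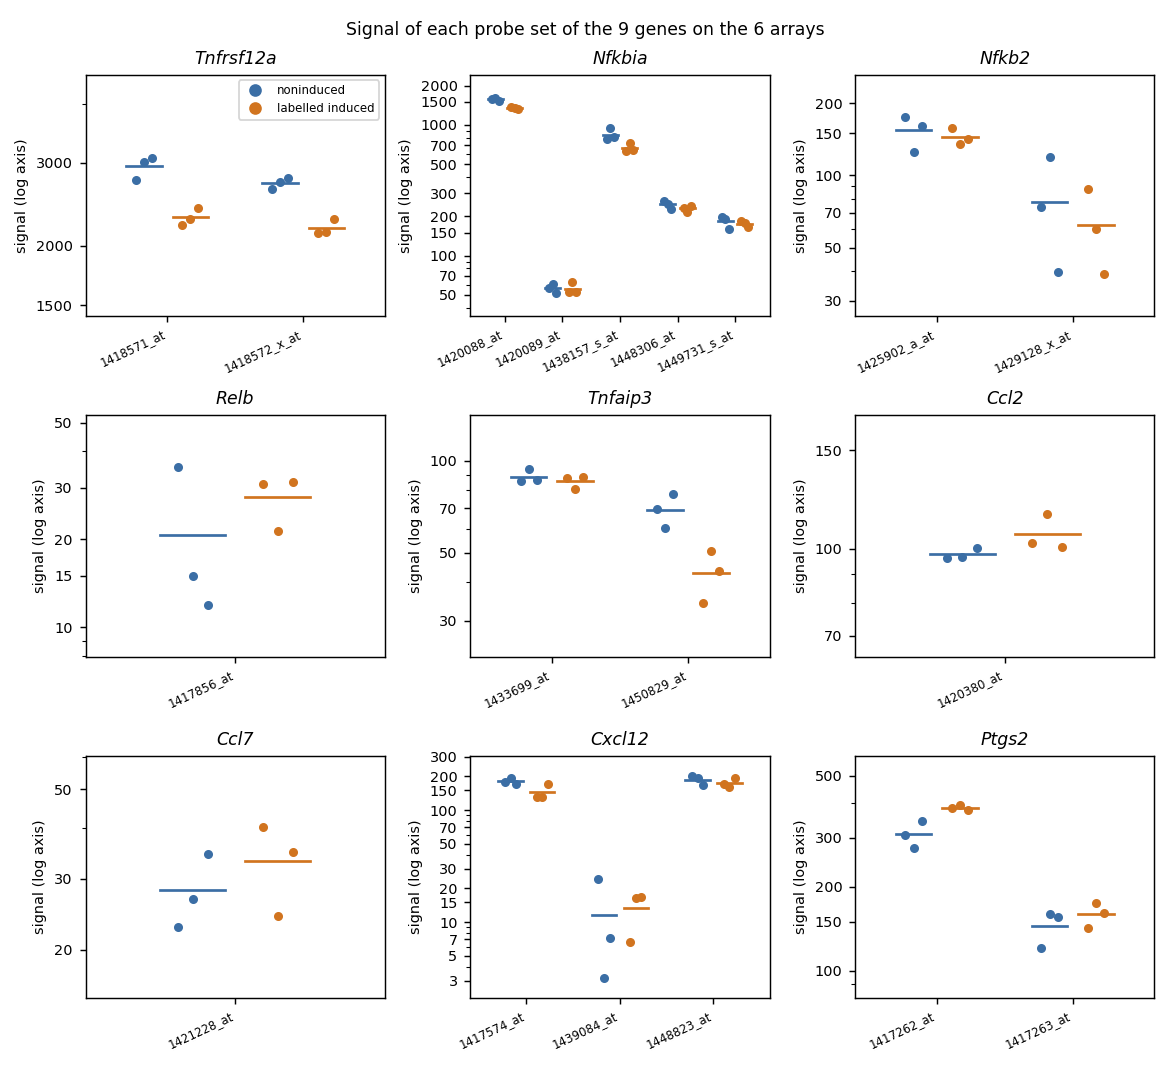
Signal (log axis) of the 19 probe sets of the 9 genes on 3 noninduced arrays (blue) and 3 arrays labelled induced (orange), 1 panel per gene; points are arrays and bars are group means. The groups separate for both Tnfrsf12a probe sets, for the bright Nfkbia probe sets 1420088_at and 1438157_s_at, for Tnfaip3 1450829_at and for Ptgs2 1417262_at, and by a narrow margin for Ccl2.

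Nfkbia encodes IkB alpha, the inhibitor that holds NF-kB in the cytoplasm, and its 5 probe sets did not give equal differences. The brightest, 1420088_at, gave 1579.6, 1623 and 1522 on noninduced replicates 1, 2 and 3 and 1378, 1353 and 1336.5 on induced replicates 1, 2 and 3. The groups did not overlap, and the difference was -0.21 (SE 0.049), 13.7% lower. Probe set 1438157_s_at gave 784, 945 and 804 on noninduced arrays. On those labelled induced it gave 636, 732 and 641. Noninduced replicate 2 and induced replicate 2 were each the highest of their group, without overlap, and the difference was -0.33 (SE 0.081). The 3 dimmer probe sets overlapped between the groups. They were at -0.09 (1448306_at, means 247 and 230.0), -0.05 (1449731_s_at, 183 and 176) and -0.01 (1420089_at, 56.3 and 55.9). After median centring the bright pair were at -0.12 and -0.23 and the first of the dim ones at 0.00, while 1449731_s_at and 1420089_at turned positive, at 0.04 and 0.08. The same pair of probe sets also took either sign when arrays were left out, from -0.13 to 0.01 and from -0.07 to 0.03.

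Tnfaip3 encodes A20, a ubiquitin-editing enzyme that is another brake on NF-kB, and its probe sets disagreed. Probe set 1450829_at had the lowest value of the 19, a difference of -0.53 (SE 0.161). It gave 69.4, 60.1 and 77.7 on noninduced arrays and 34.3, 50.7 and 43.7 on those labelled induced, without overlap. Induced replicate 1 was the lowest array, and against its own fluidics run the difference was -0.75, while a pseudocount of 64 in place of 16 gave -0.32. The brighter probe set, 1433699_at, gave 85.6, 93.7 and 86.5 against 88.0, 80.7 and 88.7. Its groups overlapped, at -0.04 (SE 0.115), and at 0.05 after median centring. The gene thus has no single value here: the difference depended on the probe set, and their log2 differences were 0.50 apart.

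The non-canonical partners Nfkb2 and Relb could not be placed. Nfkb2, the precursor of the p52 subunit, gave 175, 125.1 and 161 on noninduced arrays and 157, 135.1 and 142 on those labelled induced with 1425902_a_at. The groups overlapped, with a difference of -0.07 (SE 0.122). Its other probe set, 1429128_x_at, varied from 39.6 to 119 among noninduced arrays alone, 51.4% of their mean as SD, and gave -0.22 (SE 0.292). Both were positive in the first fluidics run, at 0.04 and 0.24, and 0.02 and -0.12 after median centring. With arrays left out in turn they ran from -0.20 to 0.02 and from -0.54 to 0.10. Relb, the subunit that pairs with p52, had a mean near the filter. It gave 35.4, 15.0 and 11.9 on noninduced arrays and 30.8, 21.4 and 31.3 on those labelled induced, a difference of 0.30 (SE 0.259). Noninduced replicate 1 was above all other arrays, and without it the difference was 0.57, against 0.13 without noninduced replicate 3.

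Among the chemokines, Ccl2 and Ccl7 had positive differences smaller than their SE. Cxcl12 was negative by both probe sets above the filter and positive by the dim probe set below it. Ccl2 and Ccl7, which attract monocytes, are neighbours on chromosome 11 with no gene listed between them in the RefSeq table of GRCm38.p6. Ccl2 gave 96.2, 96.5 and 100.4 on noninduced arrays and 102.2, 115.4 and 100.6 on those labelled induced. The groups did not overlap, but noninduced replicate 3 and induced replicate 3 differed by far less than the spread within the induced group. The difference was 0.10 (SE 0.109), but 0.19 after median centring, 0.06 in the first fluidics run and 0.05 without induced replicate 2. Ccl7 gave 22.8, 26.8 and 34.6 against 40.3, 24.3 and 35.0, with overlap and a difference of 0.15 (SE 0.206). Omitting induced replicate 1 left 0.05 and omitting noninduced replicate 1 left 0.07. It was 0.29 with induced replicate 2 omitted, 0.26 with noninduced replicate 3 omitted, 0.25 after median centring and 0.36 in the first run.

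Cxcl12 was measured by a pair of probe sets above the filter and 1 below it. Probe set 1417574_at gave 179, 194 and 169.8 on noninduced arrays and 130.8, 130.7 and 171 on those labelled induced. Induced replicate 3 alone lay within the noninduced range, and the difference was -0.31 (SE 0.114); it was -0.42 without that array and -0.21 after median centring. Probe set 1448823_at gave 203, 191 and 168 against 170.4, 159.6 and 193, with overlap and -0.10 (SE 0.103), which was 0.00 after median centring and ran from -0.17 to -0.04 with arrays left out. Here too induced replicate 3 was the highest of its group. The dim probe set, 1439084_at, ranged from 3.18 to 24.4 among noninduced arrays and was at 0.14, outside the fit, with -0.21 in the first fluidics run.

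Ptgs2 encodes cyclooxygenase-2, the inducible enzyme of prostaglandin synthesis, and 1417262_at gave the highest positive difference of the 19 probe sets. It gave 308, 275 and 344 on noninduced replicates 1, 2 and 3. The arrays labelled induced gave 384, 393 and 379, close together and all above the noninduced ones. The difference was 0.31 (SE 0.085), 23.9% higher, and 0.30 in the first fluidics run. The second probe set, 1417263_at, gave 120.3, 159.9 and 156 against 142, 175 and 161.5. These groups overlapped, with 0.13 (SE 0.121), 0.01 without noninduced replicate 1, 0.22 after median centring and -0.02 in the first fluidics run.

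**Figure D2:**
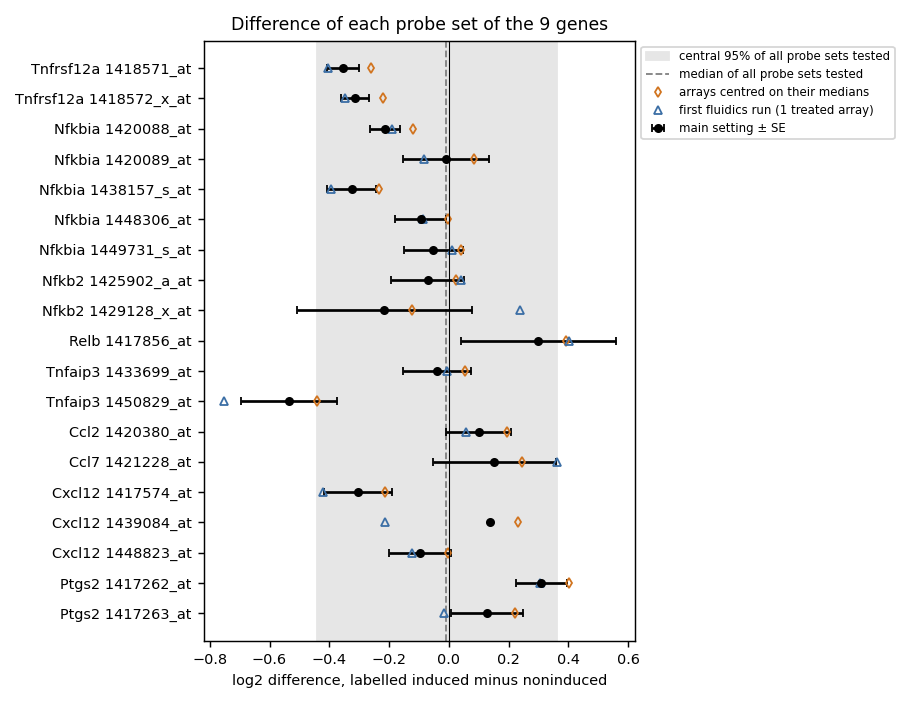
Log2 difference (arrays labelled induced minus noninduced) of the 19 probe sets, with the SE for the 18 above the signal filter (black), beside the value after median centring (diamonds) and the value within the first fluidics run, which has 1 treated array (triangles). The grey band is the central 95% of all probe sets tested, -0.44 to 0.36; of the main values Tnfaip3 1450829_at alone lies outside it, at -0.53.

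Over all 19 probe sets, 13 differences were negative and 6 positive, with a median of -0.07 beside -0.01 for all probe sets tested. Among the 18 above the filter the groups did not overlap for 5 as lower and 2 as higher. Over the whole array 20.3% of probe sets did so, 10.6% as lower and 9.65% as higher. The probe sets of a gene share its transcripts, so these counts stand for fewer genes: Tnfrsf12a, Nfkbia and Tnfaip3 as lower, Ccl2 and Ptgs2 as higher.

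The probe sets most like Tnfrsf12a 1418571_at over the 6 arrays were sought among 19816 single-gene probe sets above the filter, outside the set. Likeness was the root mean square difference of log2 values, each probe set centred on its own mean. The median over all was 0.227, and the second Tnfrsf12a probe set was at 0.033. The nearest was Jun 1448694_at, a subunit of the transcription factor AP-1, at 0.035, followed by Angel2 1415731_at and Nek6 1425850_a_at, a mitotic kinase, both at 0.038. Sf1 1422321_a_at, a splicing factor, was at 0.039 and Polr3d 1424565_at, an RNA polymerase III subunit, at 0.040. Jun gave 431, 466 and 460.5 on noninduced arrays and 329.7, 336 and 347 on those labelled induced. Such a search returns probe sets that separate the groups in the way Tnfrsf12a does, so it is a description of these arrays.

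**Figure D3:**
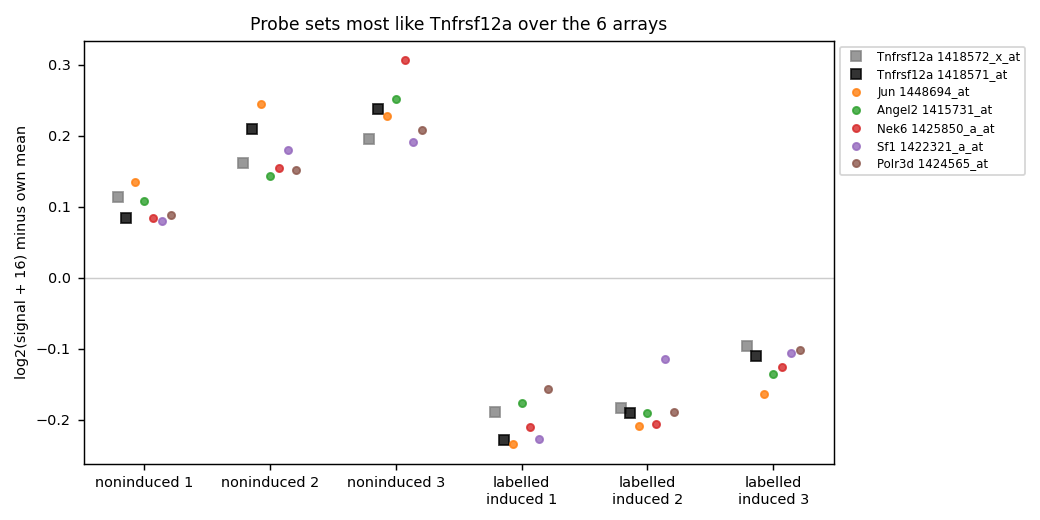
Log2(signal + 16) of both Tnfrsf12a probe sets (squares) and the 5 nearest probe sets of other genes (circles) on each of the 6 arrays, each minus its own mean over the arrays; points are set apart sideways for legibility. All 7 lie above 0 on the noninduced arrays and below 0 on those labelled induced.

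Other genes of the pathway, outside the set, were tested in the same fit with 1 probe set per gene. Of 139 genes in 9 lists, 128 had a probe set and 67 were above the filter. In limma 0 passed an adjusted p of 0.05, beside 0.200% of all probe sets tested (0.120% as higher and 0.0799% as lower), and 14 (20.9%) had an unadjusted p under 0.05, against 14.7% of all probe sets tested. Signs were mixed, with 27 positive and 40 negative values and a median of -0.05. The sign of a gene rests on its brightest probe set: of 32 genes with other probe sets above the filter, 18 had at least 1 of opposite sign. The genes closest to the threshold were Sdc4 (limma adjusted p = 0.0553) and Pla2g4a (0.0763). Sdc4 was singled out after its values were seen.

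Adaptors and kinases between the receptor and NF-kB gave small values. Tnfsf12, which encodes the ligand TWEAK, had no probe set annotated to it alone and so no value here. The same holds for Traf3 and Ripk1 of the adaptor list and for Chuk of the IKK list. Of 8 adaptors and regulators at TNF receptors none passed, with 4 positive and 4 negative values and a median of 0.05. After median centring 7 were positive and the median was 0.14, while it was 0.01 within the first run and -0.01 without induced replicate 3. Traf2, an adaptor that binds the TWEAK receptor, was at -0.24, and the deubiquitinases Cyld and Otud7b were at 0.15 and 0.13, with other probe sets down to -0.13 and -0.10. Of 9 kinases and partners of the IKK complex none passed, and 8 were positive by their brightest probe set, with a median of 0.11 (0.21 after median centring, 0.13 within the first run, 0.07 without noninduced replicate 1). Of 7 with other probe sets above the filter, 4 had one of opposite sign: Ikbkb down to -0.46, Map3k7 and Map3k3 to -0.19 and Tab2 at -0.17. Ikbkg, the regulatory subunit NEMO, gave 265, 279 and 249 on noninduced arrays and 317, 313 and 318 on those labelled induced, a difference of 0.25 (SE 0.075, limma adjusted p = 0.174), and its other probe sets ran from 0.09 to 0.44. The brightest probe set of Tab2 was at 0.17 and that of Tbk1 at 0.14. Of 5 other NF-kB and IkB genes none passed (median -0.05, and 0.04 after median centring): Rela, the main transactivating subunit, was at -0.05, Nfkbib at -0.15 and Nfkbiz at 0.11, the last with other probe sets at -0.03 and 0.00.

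Other receptors and NF-kB targets did not pass either. Of 13 further TNF receptor family genes, 10 were negative, with a median of -0.19 (-0.09 after median centring, -0.10 within the first run). Tnfrsf1a, the main TNF receptor, was at -0.07, the lymphotoxin receptor Ltbr at -0.19, Tnfrsf4 at -0.39 and Fas at 0.54 with means of only 18.1 and 30.9. Of 14 other NF-kB targets, 10 were negative, with a median of -0.07 that was 0.02 after median centring. The groups did not overlap for 6 of the 14 as lower and for 0 as higher. Over all probe sets tested these shares were 10.6% and 9.65%. Sdc4, a heparan sulphate proteoglycan, gave 794, 843 and 772 on noninduced arrays. It gave 627, 655 and 577 on those labelled induced, a difference of -0.37 (SE 0.066), while its other probe set gave -0.06. The growth factor Csf1 was at -0.13, Sod2, mitochondrial superoxide dismutase, at 0.01 (others from -0.22 to 0.20), the ribonuclease Zc3h12a at -0.38 and the chemokine Cxcl5 at 0.41. The classical targets Il6, Tnf and Icam1, and Birc3 from the adaptors, lay below the filter in both groups, with means of at most 11.7. Other targets lay above it, among them Vcam1 (noninduced and induced means 324 and 327), Ier3 (621 and 596) and Irf1 (351 and 299).

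Of 6 other chemokines above the filter all were negative, with a median of -0.25 (-0.16 after median centring, -0.07 within the first run), and none passed. Their signals were low, 58.4 at most as a group mean. Ccl4 was at -0.49, Ccl8 at -0.27, Ccl25 at -0.27 (0.01 by its other probe set) and Cx3cl1 at -0.15. The summed signal of 7 macrophage markers was 322 to 372 on noninduced arrays and 292 to 331 on those labelled induced. The 4 macrophage markers above the filter were all negative, with overlap and a median of -0.15: Csf1r at -0.26, Adgre1 at -0.25, Cd14 at -0.04 (means 171 and 166) and Cd68 at -0.03, the last 2 turning to 0.05 and 0.06 after median centring. The defining leukocyte marker Ptprc, with means of 4.76 and 5.77, lay below the filter, as did Itgam and Lyz2. Their part in the chemokine values was not tested. In bulk RNA, fewer cells of a type and less RNA per cell cannot be told apart. The CXCL12 receptors were near 0, Cxcr4 at -0.01 (0.09 after median centring) and the scavenging receptor Ackr3 at -0.10 (0.00 after median centring). Ackr1, a scavenger of CCL2 and related chemokines, was at 0.08, while Ccr2, a receptor of CCL2 and CCL7, was below the filter.

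Prostaglandin genes beside Ptgs2 gave 5 tested members, of which none passed. Their median was -0.04, but 0.05 after median centring and -0.23 without induced replicate 1 or without induced replicate 3. Pla2g4a, the phospholipase that releases arachidonic acid for cyclooxygenases, gave 223, 246 and 209 on noninduced arrays and 329.9, 289 and 302 on those labelled induced. The groups did not overlap, with a difference of 0.42 (SE 0.087, limma adjusted p = 0.0763). After median centring Pla2g4a was at 0.51 and passed (limma adjusted p = 0.0237). That setting passed 306 probe sets over the whole array, 294 of them as higher, against 45 in the main setting. Ptger4, a prostaglandin E2 receptor, was at 0.19 and the synthase Ptges at -0.31. Of 4 genes of muscle atrophy above the filter none passed, and all were positive by their brightest probe set, with a median of 0.24: the ubiquitin ligases Fbxo32 and Fbxo30 were at 0.25 and 0.06, and the transcription factors Foxo1 and Foxo3 at 0.30 and 0.24. Other probe sets did not share that sign for 3 of the 4: they ran from -0.24 to 0.06 for Fbxo32 and from -0.01 to 0.36 for Fbxo30, and were at -0.04 and -0.03 for Foxo1. Trim63, a ubiquitin ligase of muscle, lay below the filter with means of 12.9 and 2.69. It was lower without overlap, at -0.62, but outside the fit and so without an SE. Signals this dim are limited by background.

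**Figure D4:**
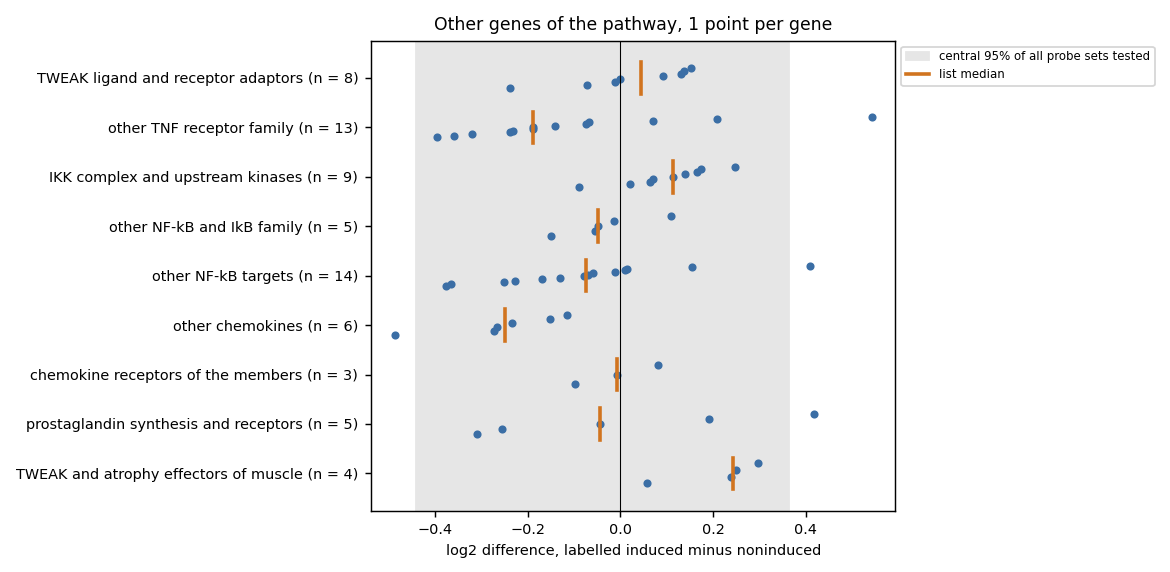
Log2 difference (arrays labelled induced minus noninduced) of the 67 tested genes of the 9 pathway lists, 1 point per gene, with list medians (orange) and the central 95% of all probe sets tested (grey). Medians run from -0.25 for other chemokines to 0.24 for the atrophy genes, and no point passed the adjusted threshold; each gene is shown by its brightest probe set.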

How the data were processed

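Biotin-labelled RNA of 6 samples was measured on Affymetrix Mouse430_2 arrays, 1 each, per the file headers and the labels' protocols. The authors deposited a linear signal intensity per probe set, from GCOS 1.1.1 according to the submitters' processing notes; the sources used here state no settings and no detection calls. The values show a scaling: all arrays had a mean of 150.0 once 2% at either end was trimmed. The deposited instrument records (other, no expression values) gave fluidics and scan order, per the file headers. Fluidics runs were split at gaps in the recorded hybridisation times, and the second run used modules 1 and 2 again. For 1 array of that second run, induced replicate 2, the recorded scan precedes the recorded hybridisation time.

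Groups came from titles, and p-values measure the spread between these samples. After 64 control probe sets were set aside, 45037 were left, of which 34945 are annotated to 1 gene, 932 to several and 9160 to none in the table used. Values were taken to log2(signal + 16), which understates changes of dim transcripts. The 22518 with an above-median mean signal were fitted with limma 3.58.1 (R 4.3.3; lmFit, then eBayes with trend; Benjamini-Hochberg over all of them, threshold 0.05); tables used Python 3.11.15. Genes of lists were represented by their brightest probe set. The fit was tested on simulated data. Their noise was independent between arrays, with no effect of fluidics run, scan order or scaling, so they cannot show how the fit deals with these.

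The genes of the set, the lists and the tests were chosen with earlier results of these data known. Named from each list are the 2 genes with the largest change and the 2 brightest; Itga7, all genes of the set and the 5 nearest probe sets are also named. Il6, Tnf, Icam1, Birc3, Vcam1, Ier3, Irf1, Trim63, Ccr2 and the markers are named as examples. Tnfsf12, Traf3, Ripk1 and Chuk are named because they gave no value.

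Alternatives were quantile normalization, median centring, other filters and pseudocounts, other variance models, array weights, the replicate number or fluidics run as a block, the first run alone, leaving out each array, and a threshold of 0.10.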

Additional observations from a re-analysis of the deposited data

How the results depend on the processing

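The 45 probe sets past the threshold over the whole array became 306 after median centring (294 higher and 12 lower, with the median of all tested moved by 0.09), 102 with a filter at the 75th percentile, 74 with robust moderation, 86 with array weights, 219 at a threshold of 0.10, 1 with no filter and 0 without a variance trend (2817 at an unadjusted p under 0.05), with the fluidics run as a block (1923) or in the first run alone (1969). Leaving out 1 array gave 0 to 49: 0 without induced replicate 1 (2604 unadjusted), 11 without induced replicate 2, and 1 or 9 when the array omitted was noninduced replicate 2 or 3, in that order. Of the set, 2 probe sets (both of Tnfrsf12a) were among the 45, a count that tests nothing since the genes were chosen on this comparison; it became 0 after median centring, with no filter, without a variance trend, with either block and in the first run; leaving out 1 array gave 0 to 2. The 0 calls of the pathway lists became 1 after median centring (Pla2g4a), with the 75th percentile filter, robust moderation or array weights (Sdc4 each time), and 2 at a threshold of 0.10 (both).

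With the replicate number as a block 5 probe sets passed, 0 of the set. No pairing by number was seen: deviations of same-numbered arrays correlated at 0.01, -0.06 and -0.01, and not every array correlated best with its own number. Such a check over all tested probe sets can show only a broad shared effect, so it does not exclude pairing.

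Of 304 differences of the set's probe sets under alternatives, 295 moved by less than the spread between replicates, as did 129 of 143 list medians. Other filters and the replicate block cannot change a probe set's difference, and the fluidics block repeats the value of the first run. The first count therefore overstates how stable the differences are. Both Tnfrsf12a differences moved by more than that spread after median centring. No detection calls were used, so dim probe sets such as those of Relb and Ccl7 are limited by background.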
